A study of Mus musculus with 10 samples.

Results

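The 4 genes described here are Atp1b1, a beta subunit of the pump that exchanges sodium for potassium; Slc12a2, the sodium, potassium and chloride cotransporter NKCC1; Slc4a1, the chloride and bicarbonate exchanger AE1; and Ywhab, the beta form of the 14-3-3 adaptor proteins. Their members were all clones of the array whose probe annotation carries 1 of these symbols alone, which gave 9 clones with 18 spots of the 15600 clones and 31200 spots in the table. Slc12a2 and Atp1b1 each have 3 clones, Ywhab 2 and Slc4a1 1. A further clone annotated to Slc12a2 together with a second gene was left out by this rule and was listed on 0 treated arrays. A clone is named below by the numbers of its 2 neighbouring spots.

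The M-1 cells used are a line from the mouse cortical collecting duct (passages 34 to 36 per the labels), and their RNA was hybridised to two-colour spotted cDNA slides. At confluence the cells were kept for 24 to 36 h in medium nominally free of steroid hormones with 10% charcoal-treated serum, and then received either 100 nM dexamethasone, a synthetic glucocorticoid, or steroid-free medium for 3 h. The 3 treated pairs set Cy5 of treated cells against Cy3 of control cells on slides numbered in the titles, and the 2 control pairs, joined by the number in their titles, hold control RNA in both dyes. The groups follow the titles. For 5 of the 7 channels with control in the title, another label field says dexamethasone, so every direction below rests on the titles. No dye swap was made, and treated RNA is always in Cy5. The control pairs show what the dyes do to a ratio without treatment, but on other slides than the treated pairs. Slide set, with any dye effect that differs between slides, and treatment thus cannot be told apart. Nothing in the labels says that replicates came from separate cultures, and the p-values below then cover the spread of these samples alone, and that may be technical.

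Principal cells of the collecting duct take up sodium through the apical epithelial sodium channel and push it into the blood with the basolateral sodium pump, an alpha and a beta subunit that must assemble to reach the membrane. Steroid hormones raise this transport, in part through the kinase Sgk1, whose phosphorylation of the ubiquitin ligase Nedd4-2 creates a docking site for 14-3-3 proteins and keeps the channel at the surface. The acid-secreting intercalated cells of the same segment return bicarbonate to the blood through the basolateral exchanger encoded by Slc4a1, which red cells also carry as band 3. NKCC1 loads chloride into epithelial cells from the basolateral side. The study's title names early dexamethasone-inducible genes, and treated against control pairs is the comparison for them.

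In the RefSeq gene table (GRCm38.p6) Atp1b1 spans chromosome 1 from 164437099 to 164458355, Ywhab chromosome 2 from 163995197 to 164018588 and Slc4a1 chromosome 11 from 102348820 to 102365281. Positions of the clone inserts within these genes were not used here. The bases just before the Atp1b1 start are shown because it was the 1 member gene with an entry in the promoter table used. The window, 250 bases at chr1:164458356-164458605 on the minus strand (RefSeq, GRCm38.p6), reads 5′ to 3′, with GC boxes and the inverted CCAAT box in capitals:

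Atp1b1: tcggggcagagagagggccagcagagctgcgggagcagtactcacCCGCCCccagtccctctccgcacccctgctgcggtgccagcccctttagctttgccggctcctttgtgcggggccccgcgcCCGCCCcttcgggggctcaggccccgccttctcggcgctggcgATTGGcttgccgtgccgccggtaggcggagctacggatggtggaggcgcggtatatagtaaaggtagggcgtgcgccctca

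The palindromic glucocorticoid response element, AGAACA and TGTTCT with 3 bases of any kind between them, had 0 matches there, as did either of its arms alone, AGAACA or its complement, on both strands. Of all 32851 RefSeq windows of this length, 0.00913% hold the palindrome and 16.1% an arm. The GC box GGGCGG matched 2 times and CCAAT 1 time on both strands, and 32.7% and 33.8% of all windows hold them. No match says only that these letters are not in this window.

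What a value on a treated array is has to be said first, since it shapes every result. The control pairs list 31022 and 30942 spots, but the treated arrays list only 3778, 3994 and 4002, those whose ratio lies outside an empty band around the centre. A spot is called listed higher or lower when it appears on a treated array with a ratio above or below that band, and a missing spot has no measured ratio. Ratios are log2 Cy5/Cy3, centred on the band's midpoint in treated arrays and by lowess on intensity in control pairs. Treated values are thus large by construction, which can enlarge a difference and narrow an SD. Median intensity over the spots listed on each pair ran from 327 to 1076 in control pairs and from 355 to 880.5 in treated pairs. These are different sets of spots, so the medians do not compare the brightness of the arrays. The number of arrays limits the precision.

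Over the 3 treated arrays the members had 9 spots listed higher and 2 lower of 54 spot positions, while 6.36% and 6.22% of all positions were listed higher and lower. Of these, 6 higher and 0 lower listings lie on treated array 1, where 6.38% of all spots were higher and 5.73% lower. On treated array 2 there were 2 higher and 2 lower, beside 6.17% and 6.63% of all spots, and on treated array 3 there was 1 higher and 0 lower, beside 6.53% and 6.3%. Without the first treated array the count was 3 higher and 2 lower. Of the 9 clones 8 were listed at least once, beside 51.8% of all clones, and the other, the Ywhab clone at spots 19141 and 19142, was not. Of the 9, 3 clones were listed higher on at least 2 arrays with none lower, as were 4.21% of all clones, and 0 were listed lower in that way, beside 4.2% of all. The members were chosen with such results known, so the counts are a description. The 36 positions of the members on the control pairs, where the same share of spots was taken as listed by size of ratio, held 2 higher and 1 lower, beside 5.99% and 6.52% of all positions.

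Every one of the 11 listings was of 1 spot of its clone, with the neighbour unlisted. This is the usual case, since 88.3%, 86.9% and 86.5% of the clones listed on treated arrays 1, 2 and 3 had 1 spot listed. On the control pairs, where both spots can be compared, the ratios of neighbouring spots differed with an SD of 0.40 (log2) over 30804 comparisons, and of 0.32 over the 17 comparisons of the members. The listed ratios ran from 0.45 to 0.93 in size, which the empty band alone keeps above about that SD, and each rests on 1 spot.

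**Figure D1:**
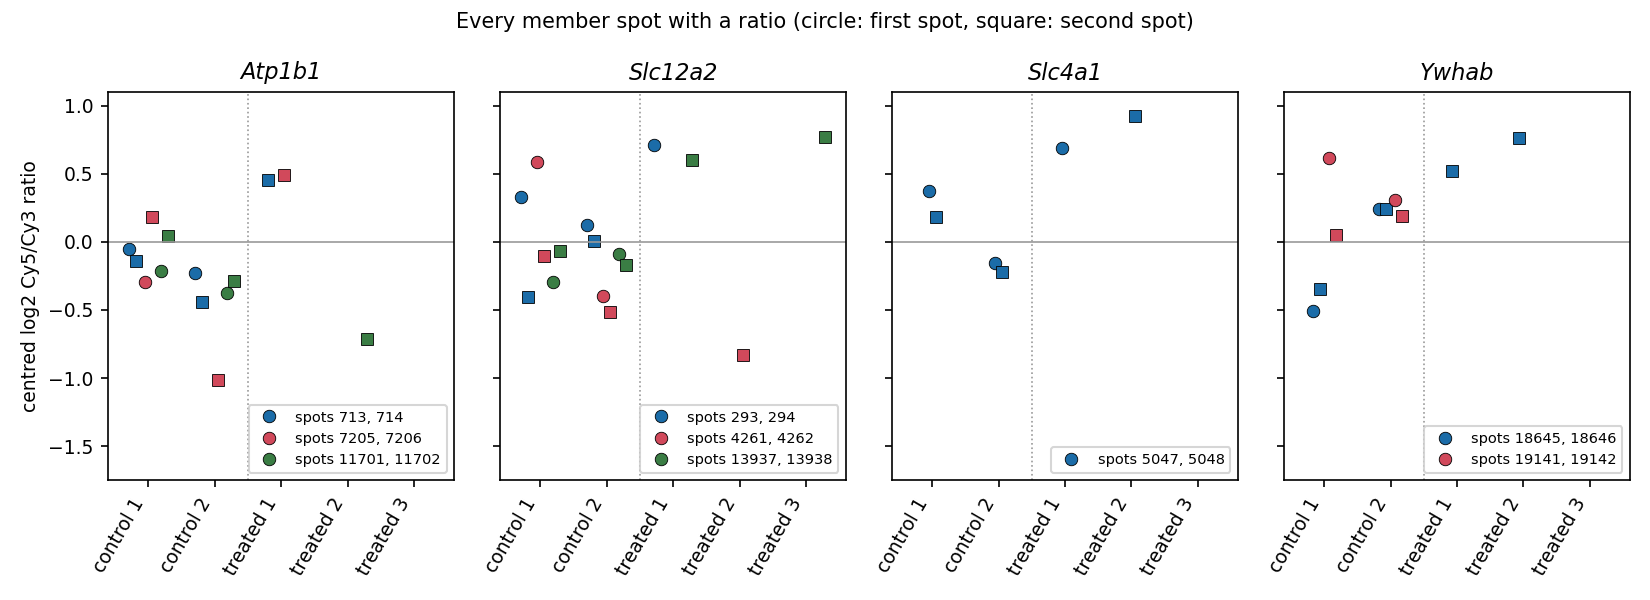
Centred log2 Cy5/Cy3 ratio (vertical axis) of every member spot with a value on the 2 control and 3 treated pairs (horizontal axis), 1 panel per gene, colours for clones, circles and squares for the first and second spot. Treated values reach 0.93 for Slc4a1, while Atp1b1 and Slc12a2 have treated values on both sides of 0 and an Atp1b1 spot reaches -1.02 on a control pair.

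Atp1b1, whose product carries the alpha subunit of the pump to the membrane, was listed once for each of its 3 clones, with 2 listings higher and 1 lower. The clone at spots 713 and 714 had ratios of -0.10 and -0.34 on the control pairs and 0.45 on the first treated array, where its second spot read 1900 in Cy5 of treated and 1380 in Cy3 of control cells. That value lies just outside the band, whose upper edge among the 150 listed spots closest in brightness was at 0.44. The clone at spots 7205 and 7206 had 0.49 on the same array (Cy5 939, Cy3 671), with the edge at 0.48. Only 2.96% and 6.63% of the spots listed higher on this array were at or below these sizes, so both are among the smallest listed.

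The control pairs show how far the Atp1b1 clone at spots 7205 and 7206 varies with no treatment. Its second spot had 0.18 on the first and -1.02 on the second, where Cy5 read 1188 and Cy3 2448, and the first spot had no value on the second control pair. This untreated ratio is larger in size than any listed ratio of the gene. The remaining Atp1b1 clone, at spots 11701 and 11702, is the brightest of the 9, at the 97.8th percentile of brightness among all clones on the control pairs, and its direction was the opposite. Its second spot had -0.71 on the second treated array (Cy5 8476, Cy3 11986), and its control pairs stood at -0.09 and -0.33, also below 0. The Atp1b1 clones, all above the 75th percentile of brightness, thus went opposite ways on different arrays, and none was listed on treated array 3.

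None of the Atp1b1 clones had values on 2 treated arrays, so the limma fit described below holds none of them. In a wider limma fit, of every clone valued on any treated array (8056 clones), a single treated pair stands for the group, so their differences of 0.67, 1.03 and -0.50 carry no measure of the spread between treated arrays.

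Slc12a2, on chromosome 18 from 57878512 to 57946821 (GRCm38.p6), had 3 spots listed higher and 1 lower. Its clone at spots 13937 and 13938 was listed higher on 2 arrays, through the same second spot. That spot had -0.07 and -0.17 on the control pairs and 0.60 and 0.77 on treated arrays 1 and 3, where treated Cy5 read 332 and 1150 and control Cy3 243 and 634. Averaged with its neighbour, the clone stood at -0.18 and -0.13 on the control pairs, and both treated values lay above both. Among the spots nearest in brightness listed higher, 81 on each array, the value on treated array 1 ranked 3 from the smallest and that on treated array 3 ranked 75.

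The other Slc12a2 clones were listed once each. At spots 293 and 294 the first spot had 0.71 on the first treated array (Cy5 298, Cy3 205). On the control pairs that spot had 0.33 and 0.12 and its neighbour -0.40 and 0.01, a gap of 0.73 between spots of 1 clone on 1 slide that is as large as the treated value. At spots 4261 and 4262 the second spot had -0.83 on the second treated array (Cy5 379, Cy3 796), the 1 lower listing of the gene. Its control values were -0.11 and -0.51, and those of its neighbour 0.58 and -0.40. The 3 Slc12a2 clones are of middling to low brightness, at the 28.1th, 47.2th and 48.0th percentiles.

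Slc4a1 was listed higher on 2 arrays, at different spots. The first spot had 0.69 on the first treated array (Cy5 427, Cy3 287) and the second had 0.93 on the second (Cy5 888, Cy3 511), a 1.90-fold ratio that is larger than or equal to 88.4% of those listed higher there. It is the largest listed ratio of the 4 genes. On the control pairs the spots had 0.37 and 0.18 on the first and -0.15 and -0.22 on the second, so neighbours agreed to 0.19 and 0.06. The control pairs thus differed from each other by more than the spots did, and both treated values lay above all 4 control values. The clone is dim, at the 36.6th percentile of brightness, and intensity alone does not show that M-1 cells express the exchanger.

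Ywhab also had 2 higher listings, both at the second spot of the clone at spots 18645 and 18646. The spot had 0.52 on the first treated array (Cy5 1428, Cy3 993) and 0.76 on the second (Cy5 1233, Cy3 728). On the control pairs it had -0.35 and 0.24 and its neighbour -0.51 and 0.24, so the spots agreed while the pairs did not. The treated values lay above both control pairs. The other Ywhab clone, at spots 19141 and 19142, had clone means of 0.33 and 0.25 on the control pairs and no treated value. On the first control pair its first spot had 0.61 and its second 0.05. With control RNA in both dyes, 1 spot of this clone thus gave a ratio within the range of the treated Ywhab values. The clone mean there, 0.33, lay below that range.

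**Figure D2:**
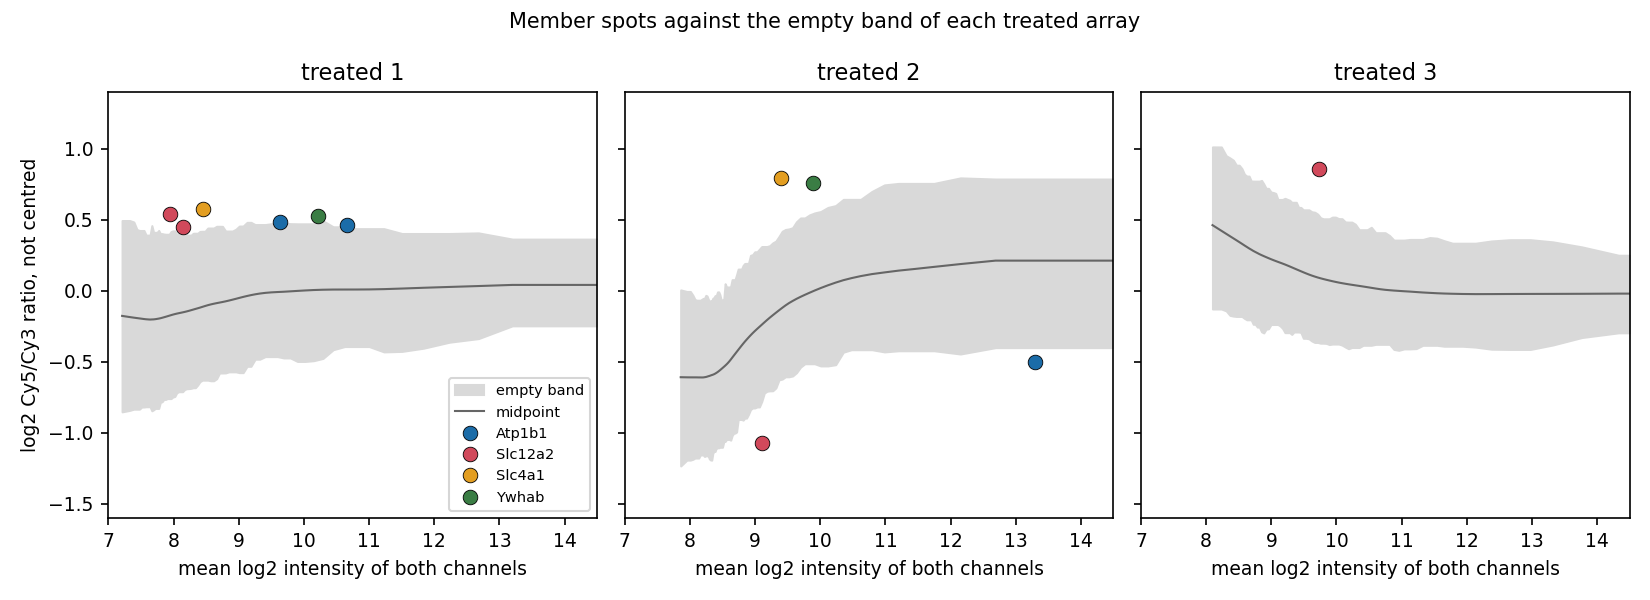
Uncentred log2 Cy5/Cy3 ratio (vertical axis) against mean log2 intensity of both channels (horizontal axis) for the listed member spots on the 3 treated arrays; grey marks the empty band found in windows of 150 listed spots (drawn level beyond the last window), the line its midpoint. The Atp1b1 spots of treated 1 lie at the band's edge, and the Slc4a1 spot of treated 2, at a centred 0.93, well outside it.

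The test was limma on the difference between treated and control pairs, fitted over the 2131 clones with values on at least 2 treated arrays and both control pairs. With Benjamini-Hochberg adjustment at 0.05 it called 0 clones higher (0%) and 0 lower (0%). Unadjusted, 287 clones higher and 263 lower had a p below 0.05. Clones entered the fit by being listed on treated arrays, where ratios inside the empty band are missing, while control ratios are not cut. The limma p-values, SEs and intervals take no account of this, so they describe the listed values and are no valid test of treatment. The members in it were 1 clone each of Slc12a2, Slc4a1 and Ywhab, each valued on 2 treated arrays, which the other 6 member clones were not.

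For Slc12a2 at spots 13937 and 13938 the treated mean was 0.69 ± 0.12 (SD, log2, n = 2) and the control mean -0.16 ± 0.04 (SD, n = 2). The limma difference was 0.84 (SE 0.20, 95% interval 0.27 to 1.41), with an unadjusted p of 0.0150 and an adjusted p of 0.187. For Slc4a1 the means were 0.81 ± 0.17 and 0.05 ± 0.33 (SD, log2, n = 2 each) and the limma difference 0.76 (SE 0.27, interval 0.0038 to 1.51), unadjusted p 0.0493 and adjusted p 0.193. For Ywhab they were 0.64 ± 0.17 and -0.09 ± 0.47 (SD, log2, n = 2 each) and the limma difference 0.73 (SE 0.32, interval -0.17 to 1.64), unadjusted p 0.0857 and adjusted p 0.235. None passed. All 3 clones had each treated value above both control pairs, as did 28.5% of the fitted clones, with 27.4% below both, so this pattern is common under the selection of outlying ratios.

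A ratio can rise through either channel, so the channels were set apart. Levels are log2 intensities relative to the channel's median over the 95 spots valued in all 10 channels. Those spots were listed on every treated array, so their ratios there are outlying. For these clones a level is the mean of both spots on control pairs and that of the 1 listed spot on treated arrays. Levels are not centred by intensity and do not add up to the centred ratios. By this measure the fitted clones as a whole stood lower on treated than on control arrays, with a median shift of -0.77 in Cy5 and -0.49 in Cy3. Slc4a1 moved by -0.06 in Cy5, which is 0.71 relative to that shift, and by 0.22 relative to it in Cy3. Its Cy5 level was -0.39 and -0.53 on the control pairs and -1.12 and 0.08 on the treated arrays, so the groups overlapped.

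Slc12a2 moved by 0.41 in Cy5 and -0.66 in Cy3 relative to the shift. Its control Cy3 level was -0.43 and -0.33 on the control pairs and -1.48 and -1.57 on the treated arrays, with no overlap, although all 4 channels hold control RNA. Its Cy5 level was -0.86 and -0.15 on the control pairs and -1.48 and -0.25 with dexamethasone. Relative to the shift, the control channel thus moved further than Cy5. Of the fitted clones, 14.4% had a Cy3 shift as low as that of Slc12a2 or lower. How many of them had no overlap in Cy3 was not counted.

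Ywhab was dimmer in both channels on the treated arrays, with -0.96 in Cy5 and -1.39 in Cy3 relative to the shift. Its control Cy3 level fell from 1.99 and 2.09 on the control pairs to 0.55 and -0.21 on the treated arrays, and Cy5 from 2.37 and 2.27 to 0.62 and 0.55. Only 2.21% of the fitted clones had a Cy3 shift as low or lower. Before the shift was taken out, Cy3 moved by -1.87 and Cy5 by -1.74, so the loss of brightness was somewhat larger in Cy3. With or without the shift, this gap is smaller than the centred limma difference of 0.73. The levels are on another scale than the centred ratios, so they do not show what makes up that difference. Without normalisation the limma difference of this clone was 0.64. Cy5 alone gave a limma difference of -1.74 (SE 0.44, adjusted p = 0.162). What part the slides have in this was not tested.

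**Figure D3:**
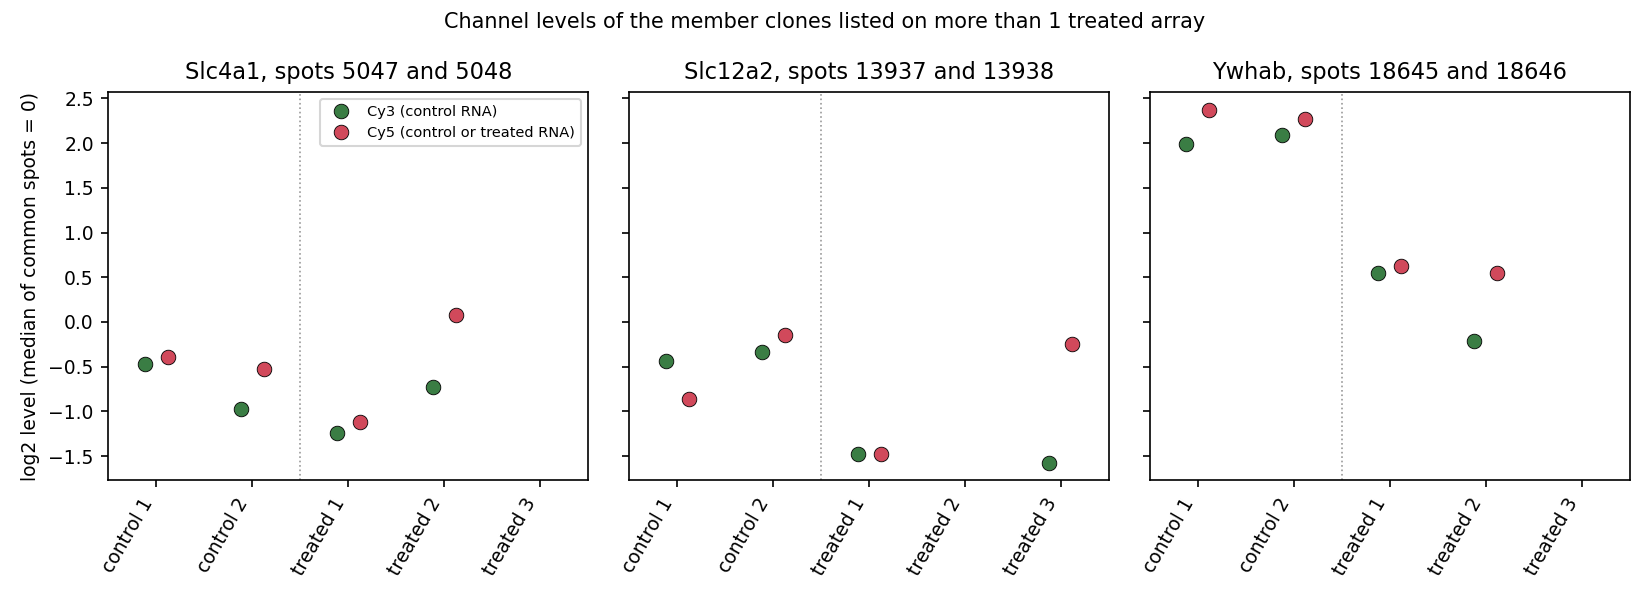
Log2 level of each channel (vertical axis, 0 is the channel's median over 95 spots valued in all channels) on the 5 pairs (horizontal axis) for the 3 member clones listed on 2 treated arrays. Green is Cy3 and red Cy5. Points on control pairs are the mean of both spots, and those on treated arrays the 1 listed spot. Ywhab lies near 2 on both control pairs and below 1 on treated arrays in both channels, while Slc12a2 is lower in Cy3 on treated than on control pairs.

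The other genes of the pathway were taken from 6 lists with 126 genes, 42 of them measured by 62 clones. Their spots were listed higher 25 times and lower 12 times on the treated arrays, which is 6.72% and 3.23% of positions beside 6.36% and 6.22% of all. Without the 4 genes described here the counts were 16 and 10, or 5.03% and 3.14%. The pooled lists without the members were thus not above the share of all spots in either direction. The shares of single lists given below include the members, so they cannot be set beside this pooled share. Lists that hold a member were not counted again without it. Of the lists that hold no member, the sodium channel list was above the share of all spots for higher (9.26%). The potassium and chloride channel list was above it for lower (25%), and each was below it in the other direction. In limma 7 of the 62 list clones were fitted and 0 passed in each direction. At an unadjusted p under 0.05, 4 were higher and 0 lower, beside 287 and 263 of all 2131 fitted clones. Of the 4, 2 are the member clones of Slc4a1 and Slc12a2. The median difference of the 7 was 0.73, beside 0.02 over all fitted clones. It is the value of Ywhab itself, 1 of the 3 members among the 7.

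Of the sodium pump genes, 6 were measured by 8 clones, with 2 spots listed higher (4.17% of positions), both of Atp1b1, and 3 lower (6.25%). The lower listings were Atp1b1, Atp1b2, another beta subunit, at -0.69 on 1 array against 0.31 on the control pairs, and Fxyd6, a regulator of the pump, at -0.50 on 1 array against -0.06. Atp1b3, a further beta subunit, and the regulators Fxyd3 and Fxyd4 had no listed spot. No alpha subunit had a clone with its symbol alone. The potassium and chloride channel list was measured by 2 clones, the chloride transporters Clcn3 and Clcn5, with 0 spots higher and 3 lower (25% of positions, beside 6.22% of all).

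Around the sodium channel, 7 genes were measured by 9 clones, with 5 spots listed higher (9.26% of positions, beside 6.36% of all) and 1 lower (1.85%, beside 6.22%). Sgk1, the kinase between steroid and channel, was listed higher on all 3 treated arrays, at 0.79, 0.62 and 0.89 against -0.04 and 0.14 on the control pairs. Its limma difference was 0.71 (SE 0.18, adjusted p = 0.187). The channel subunits themselves were not measured under these symbols. Nedd4, a ligase related to the one that removes the channel, had a clone listed lower on treated array 1, at -0.59, and higher on treated array 3, at 0.41, against 0.60 on the control pairs, and another clone not listed. The remaining higher listing was Usp2, a deubiquitinase, at 0.69 on 1 array against 0.20.

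Among cation and chloride cotransporters and their kinases (11 genes, 20 clones), 8 spots were higher (6.67% of positions) and 4 lower (3.33%). Besides Slc12a2, Slc12a7, a potassium and chloride cotransporter, stood at 1.03 on 1 array against 0.03 on the control pairs, and Wnk4, a kinase that controls this family, at 0.65 on 1 array against -0.04. Cul3, the scaffold of a ubiquitin ligase that degrades WNK kinases, was listed lower on 2 arrays, at -0.63 and -0.47 against -0.10 and 0.16 on the control pairs, with a limma difference of -0.58 (SE 0.22, adjusted p = 0.205). Its other clone was listed higher on 1 array, at 0.49 against -0.33, so the Cul3 clones did not go one way. The other clone of Slc12a7 was not listed. Stk39, the kinase SPAK that phosphorylates these cotransporters, was listed lower on 1 array, at -0.57, with -0.18 and -0.79 on the control pairs. The phosphatase subunit Ppp1ca had both spots of 1 of its 3 clones listed higher on 1 array, at 0.77 against -0.29.

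The bicarbonate list (9 genes, 10 clones) had 5 spots higher (8.33% of positions, beside 6.36% of all) and 0 lower (beside 6.22%). Next to Slc4a1 it held Car12, a membrane carbonic anhydrase of the collecting duct, which was listed higher on the same arrays as Slc4a1, at 0.80 and 0.93 against 0.21 and -0.21 on the control pairs. Its limma difference was 0.87 (SE 0.25, adjusted p = 0.187). Slc4a3, another anion exchanger, stood at 0.65 on 1 array against 0.19. Slc4a2 and Slc4a8 were not listed.

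The 14-3-3 family was measured whole, 7 genes by 13 clones, with 5 spots higher (6.41% of positions) and 1 lower (1.28%). Besides Ywhab, the zeta form Ywhaz had both spots of a clone listed higher on the first treated array, at 0.64 against -0.43 on the control pairs, the eta form Ywhah 1 spot on the second, at 0.61 against -0.16, and the gamma form Ywhag 1 spot lower on treated array 3, at -0.46 against -0.10. The other 9 clones of the family, among them those of Ywhae, Ywhaq and Sfn and the second clones of Ywhab and Ywhaz, were not listed. This family is bright, with 12 of 13 clones above the 75th percentile of brightness. The members of a family share sequence, and a cDNA spot can bind transcripts of its relatives, which was not tested.

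**Figure D4:**
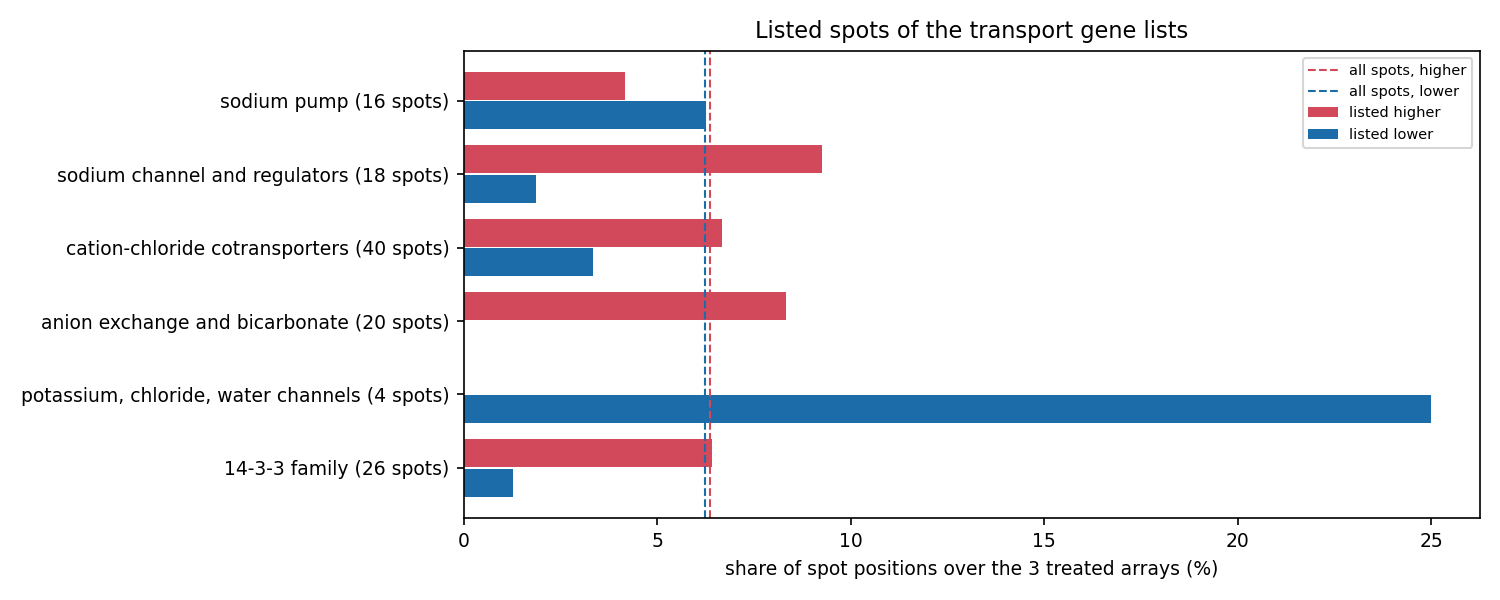
Share of spot positions (horizontal axis, percent over the 3 treated arrays) listed higher (red bars) and lower (blue bars) for the 6 gene lists, with the share over all spots as dashed lines. The sodium pump list, with 2 higher and 3 lower listings, lies below the line for higher (4.17% beside 6.36%) and about on that for lower (6.25% beside 6.22%). The bar of potassium, chloride and water channels rests on 3 listings of 4 spots.

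The clones whose ratios were most like those of each gene were found by Euclidean distance over the pairs both were valued on. For Slc4a1 they were Herc4, Car12 and Yipf3, at distances of 0.12, 0.14 and 0.19 over 4 pairs among 372 clones. For Slc12a2 they were Lin7c, Lrrc40 and Rmst (0.07, 0.18 and 0.18, 4 pairs, 408 clones), for Ywhab Rragc, Cd63 and Espn (0.16, 0.24 and 0.27, 4 pairs, 372 clones) and for the Atp1b1 clone at spots 11701 and 11702 Fhdc1, Yipf5 and Ctdsp1 (0.02, 0.04 and 0.04, 3 pairs, 1276 clones). With so few pairs, small distances arise readily among many clones. Car12 is the 1 of these named in the gene lists above.

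The marker lists for cell types are given by brightness, which differs between clones by insert, so it ranks clones on the slide and does not show which cell types the RNA came from. Kidney epithelial markers (12 genes, 17 clones) had a median brightness at the 95.6th percentile, with a range from Cldn8 at the 4.53th to a Krt18 clone at the 99.2th. The 7 clones of the keratins Krt7, Krt8 and Krt18 were at or above the 95.6th, while the Cdh1 clones were at the 20.1th and 4.97th and Emx2 at the 19.3th. Fibroblast and matrix markers (9 genes, 14 clones) had a median at the 51.0th, with a Dcn clone at the 88.6th, and principal cell markers (4 genes, 5 clones) at the 53.9th, so these lists were alike in brightness. Leukocyte and endothelial markers (3 genes) had a median at the 17.5th and the proximal tubule and thick limb list (2 genes, 3 clones) at the 6.41th. In the latter list the Lrp2 clones were at the 6.41th and 0.726th, while Gpx3 was at the 52.2th. Intercalated cell markers, Slc4a1, Car12 and Atp6v0a4, stood at the 23.2th, and red cell markers, of interest because Slc4a1 is also a red cell gene, at the 48.1th. Aqp2 and the sodium channel subunits, which define principal cells, were not measured under these symbols. On the treated arrays 6.36% of all positions were listed higher and 6.22% lower. The intercalated list, of only 8 spots, had 4 higher (16.7% of positions) and 0 lower, 2 of Slc4a1 itself and 2 of Car12. The red cell list had 4 higher and 5 lower (5.13% and 6.41%), and the epithelial list 6 and 2 (5.88% and 1.96%). The fibroblast list had 4 and 3 (4.76% and 3.57%) and the principal cell list 0 and 2 (6.67% lower). The leukocyte list had 0 and 1 (5.56% lower) and the proximal tubule list 1 and 1 (5.56% each). The part of other cell types in the results was not tested.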

How the data were processed

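The authors deposited spot intensities on a linear scale, 1 column for each of 10 channels. Per the series' design text, RNA was reverse-transcribed from oligo-dT with capture sequences for dye dendrimers, slides were read on a ScanArray 5000, and mean intensities were measured in Imagene 4.0. Background correction, normalisation and the listing rule for treated spots are not stated in any source used here.

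Groups follow the sample titles. Clones were named from the platform annotation: 19732 spots carry 1 symbol, 548 several and 10920 none. Symbols were updated by gene ID (19520 matched). Ratios were centred by lowess in control pairs (statsmodels 0.14.6, span 0.2) and on the empty band's midpoint in treated arrays (windows of 150 spots, span 0.3). Spots of a clone were averaged. The comparison was fitted in limma 3.58.1 (R 4.3.3) over all clones with values on at least 2 treated arrays, with Benjamini-Hochberg adjustment. The fit was also run on simulated data. These had no dye, slide or intensity effects, so that run does not vouch for the p-values here. Named list genes are those with a clone listed 1 way on at least 2 treated arrays, sodium pump and 14-3-3 genes are given by counts with the listed clones named, and the 3 nearest clones are named for each member. Further genes named in the lists were chosen after their values were seen. The members and lists were chosen with earlier results of these data known. The GC and CCAAT boxes were added after the response element gave no match.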

Additional observations from a re-analysis of the deposited data

How the results depend on the processing

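In limma the count of clones called higher was 0 in all 18 alternatives. The count lower, 0 in the fit reported, became 1 with median centring, 1 in clones valued in all 5 pairs, 1 in clones valued on any treated array, and 1 when the replicate block was a random effect; with each pair left out it ran from 0 to 1, the 1 without treated replicate 1. The clone was Ube2g2 each time, and the cause was not tested. With no replicate block it was 0. The pairing comes from the slide or number in the titles, and neither block setting changed a call of a member. No alternative brought a member past 0.05. Adjusted p ranged in limma from 0.145 to 1.00 for Slc12a2 and Slc4a1 and from 0.150 to 1.00 for Ywhab. The 3 fitted differences kept their sign except with the Cy5 channels alone, which gave -0.36 for Slc12a2, -0.063 for Slc4a1 and -1.74 for Ywhab, or 0.41, 0.71 and -0.96 relative to the shift of all clones. With median centring the median difference of all fitted clones was -0.23, from 0.02 in the fit reported, and the members stood at 0.81, 0.88 and 0.82 relative to it. Slc4a1 was 0.44 with the spread scaled, Ywhab 0.40 without control replicate 1, and as single spots Slc4a1 gave no value. With each treated array left out the members' listings ran from 3 to 8 higher and 0 to 2 lower, and those of the pathway lists from 15 to 19 and 5 to 10. The lone pair left in some of these fits is assumed to vary like the others. Background signal was not given, so its limit on dim clones was not tested.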
